A study of Mus musculus with 16 samples.

Results

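Hepcidin and the genes that handle iron were followed through libraries of 4 mouse liver cell types. The genes were taken by symbol and number 10 of the 47729 in the count tables: Hamp, Hamp2, Tfr2, Tfrc, Slc40a1, Fth1, Ftl1, Hmox1, Cp and Trf. The study deleted Zeb2 in endothelial cells (ECs) and sequenced mRNA of ECs, hepatic stellate cells (HSCs), Kupffer cells (KCs) and hepatocytes (HEPs) of unchallenged livers, in 16 libraries with 2 for each cell type and genotype label. KO libraries came from mice with a floxed exon 7 of Zeb2 and the tamoxifen-inducible Cdh5-CreERT2 transgene, whose promoter is active in endothelium, and WT libraries from Cre-negative littermates. All mice of both labels received tamoxifen, and the study's methods give males of 8 weeks with RNA taken 2 weeks later. HEPs were obtained by centrifugation and the other cells by sorting, with UV fluorescence for HSCs, F4/80 for KCs and a pan-endothelial antibody for ECs. Libraries are called by label and number (HEP WT 29), and the values of a group's 2 libraries are given in the order of their numbers.

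The counts on genes ranged from 12872706 to 15690506 per library, and 3 counts, taken as the smallest level that can be read, were 0.191 to 0.233 CPM, that is counts scaled to the same library total. Markers of each labelled cell type were highest in its own libraries. Zeb2 was not lower under the KO label in ECs, with 107 and 106 CPM in WT against 199 and 130.1 CPM in KO, so that the groups are named by label. The removal of a floxed exon need not lower the count over the whole gene, and this count does not measure recombination. HEP markers were found in every sorted library, and their values by label are given beside the genes below. Which libraries share a liver is not given, and p-values measure the spread between these samples only.

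Hepcidin, encoded by Hamp, is the liver hormone that lowers plasma iron: it binds the iron exporter ferroportin (Slc40a1) and has it degraded. Hepatocytes make it in response to Bmp2 and Bmp6, which sinusoidal endothelium secretes, and to inflammatory IL-6 through Stat3. Transferrin (Trf) carries iron in plasma, transferrin receptor 1 (Tfrc) takes it up and transferrin receptor 2 (Tfr2) senses it, while Kupffer cells return the iron of old red cells through heme oxygenase 1 (Hmox1) and ferroportin. Ferritin, made of heavy (Fth1) and light (Ftl1) chains, stores iron, and ceruloplasmin (Cp) is a copper ferroxidase that helps to load it onto transferrin.

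Of the 10 genes, 4 hold an iron-responsive element, the hairpin through which iron regulatory proteins block translation when it lies before the coding sequence and stabilise the mRNA when it lies behind it. A search on the transcript strand for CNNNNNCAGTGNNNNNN, in which the 5 bases after C pair with the last 5 (G with T allowed), found it in the 5′ untranslated region of Fth1, Ftl1 and Slc40a1 and 4 times in the 3′ untranslated region of Tfrc. Of all genes, 0.148% held it in a 5′ and 0.594% in a 3′ untranslated region. The sites are shown because they divide these genes by a known kind of control, of which a read count does not measure the part on translation. The loop is in capitals, and coordinates are of GRCm38.
Fth1, chr19:9982733-9982759, plus strand: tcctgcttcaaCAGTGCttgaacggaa
Ftl1, chr7:45459780-45459806, minus strand: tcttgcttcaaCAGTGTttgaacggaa
Slc40a1, chr1:45925466-45925492, minus strand: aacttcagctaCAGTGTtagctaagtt
Tfrc, chr16:32631220-32631246, plus strand: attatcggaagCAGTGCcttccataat
Tfrc, chr16:32631599-32631625, plus strand: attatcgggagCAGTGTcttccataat
Tfrc, chr16:32631664-32631690, plus strand: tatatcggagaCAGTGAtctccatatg
Tfrc, chr16:32631711-32631737, plus strand: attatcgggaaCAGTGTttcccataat

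Mice carry a second hepcidin gene, Hamp2, beside Hamp on chromosome 7. Their coding sequences were identical at 233 of 252 aligned bases (92.5%), so that reads which fit both genes may have been set aside and single counts of either are uncertain. The stretch of both RefSeq promoters (GRCm38.p6) that holds a BMP response element (GGCGCC) and a STAT site (TTCNNNGAA) in Hamp is shown, with the motifs in capitals, because these letters differ between the copies.
Hamp, chr7:30944099-30944158, minus strand: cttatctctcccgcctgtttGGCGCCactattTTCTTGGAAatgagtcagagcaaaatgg
Hamp2, chr7:30924248-30924307, minus strand: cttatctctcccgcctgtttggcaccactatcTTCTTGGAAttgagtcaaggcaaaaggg
Counted from 1 at the 5′ end of the stretch, with the base of Hamp first, the 6 differences were G24A, T32C, A42T, G50A, A51G and T58G. G24A lies in the BMP response element, which Hamp2 does not spell here, and the STAT site was the same in both. Both motifs read alike on either strand, and 11.9% and 8.33% of 32544 promoter windows of the same length held them.

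HEPs and KCs divided these genes between them. Between the 4 HEP and the 4 KC libraries, 5 of the 10 were higher in HEPs (Hamp, Hamp2, Tfr2, Trf and Cp), 4 were lower (Slc40a1, Hmox1, Tfrc and Ftl1), and Fth1 did not pass the threshold. In edgeR's quasi-likelihood test with a Benjamini-Hochberg adjusted p under 0.05, which all counts of calls use unless another test is named, 59.8% of the 14648 genes tested passed, 26.6% higher in HEPs and 33.2% lower. The libraries of the 2 cell types did not overlap in CPM for any of the 10 genes, against 62.9% of all genes. All 10 passed the filter on low counts. Log2 fold changes (log2FC) were computed after TMM scaling and are given with their standard errors (SE), and their median over all genes was -0.33. Tests over cell types treat the libraries as independent.

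**Figure D1:**
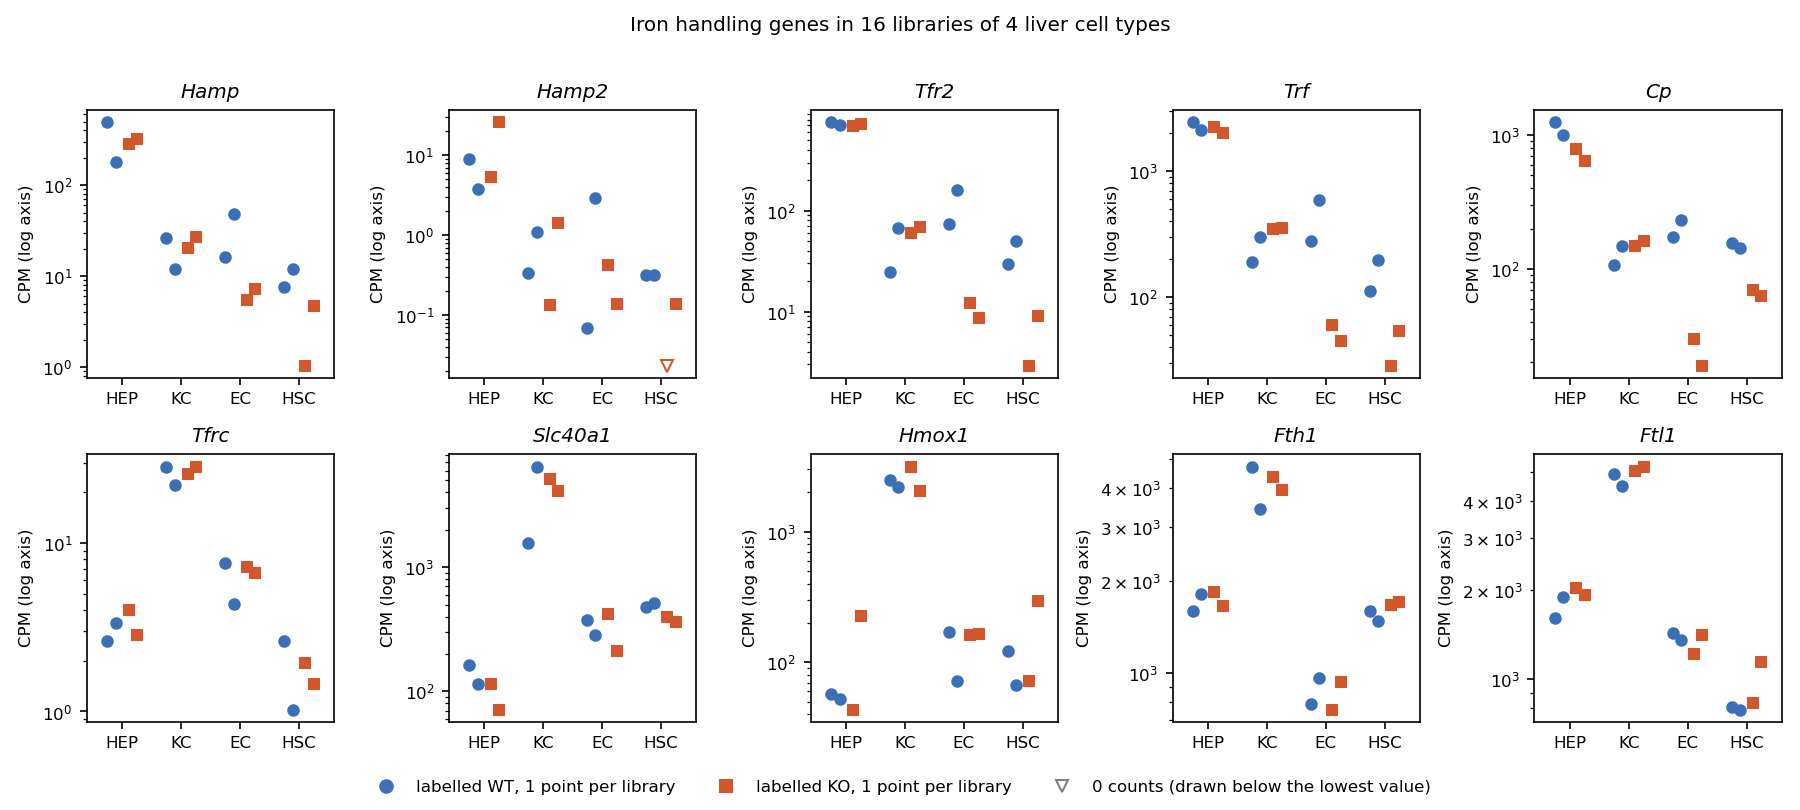
Level of each of the 10 genes in CPM (log axis) in the 16 libraries, by cell type (HEP, hepatocyte; KC, Kupffer cell; EC, endothelial cell; HSC, stellate cell), with 1 point per library and the label by colour. The 4 HEP libraries lie above all others for Hamp, Hamp2, Tfr2, Trf and Cp, the 4 KC libraries above all others for Tfrc, Slc40a1, Hmox1, Fth1 and Ftl1, and 1 HSC library has 0 counts of Hamp2.

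Hamp lies on the minus strand of chromosome 7 from 30942368 to 30944032. It had 490.1 and 181 CPM in the HEP WT libraries and 287 and 318.5 CPM in those labelled KO, against 26.3 and 11.9 CPM in KC WT and 20.3 and 26.9 CPM in KC labelled KO. All HEP libraries lay above all KC libraries, and the HEP WT libraries were the lowest and the highest of the 4. The log2FC was 4.74 (SE 0.44, adjusted p = 4.47e-05). Hamp in KCs stood at 3.54% to 8.02% of the mean of the HEP WT libraries, beside 5.18% to 11.9% for the median of 15 HEP markers in the same libraries. It lay above that median in KC WT 31 (7.83% against 5.18%) and below it in the other KC libraries. In KC WT 39, at 3.54%, it was also below the lowest marker (6.23%). The part of HEP RNA in the KC value was not tested, and in bulk libraries fewer cells and less RNA per cell cannot be told apart.

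Hamp2, on the minus strand of chromosome 7 from 30922372 to 30924681, had 9.11 and 3.82 CPM in HEP WT, 5.42 and 25.8 CPM in HEP labelled KO, and 0.132 to 1.42 CPM in KCs. The cell types did not overlap (log2FC 4.61, SE 0.86, adjusted p = 0.00214), although KC values reach below the level of 3 counts. Hamp2 took 1.83% and 2.06% of the reads on both hepcidin genes in the HEP WT libraries and 1.85% in HEP KO 25. HEP KO 41 stood apart with 7.50% (Wilson 95% interval 6.81% to 8.25%, counting error only), while its Hamp level lay between those of the WT libraries.

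The transferrin receptors were split. Tfr2, the iron sensor (chromosome 5 from 137569840 to 137587481), had 750.3 and 711 CPM in HEP WT and 698 and 719 CPM in HEP labelled KO, against 24.7 and 66.6 CPM in KC WT and 59.9 and 69.1 CPM in KC labelled KO. The HEP libraries lay within a narrow range and above all KC libraries (log2FC 4.62, SE 0.31, adjusted p = 7.66e-06). Tfr2 in KCs was at 3.38% to 9.46% of the HEP WT mean, about where the HEP markers stood.

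Tfrc, the receptor for uptake (chromosome 16 from 32608920 to 32632794), had 28.4 and 22.1 CPM in KC WT and 25.7 and 28.4 CPM in KC labelled KO, against 2.61 and 3.34 CPM in HEP WT and 3.997 and 2.83 CPM in HEP labelled KO. It was lower in HEPs by a log2FC of -2.17 (SE 0.29, adjusted p = 0.000331). Per kilobase of exon, HEPs held 331 ± 69.8 times as much Tfr2 as Tfrc mRNA and KCs 3.09 ± 1.31 times (mean ± SD, n = 4). The KC ratio rests on Tfr2 levels at 3.38% to 9.46% of the HEP WT mean, about where the HEP markers stood. The part of HEP RNA in this ratio was not tested. Young red cells are rich in Tfrc, and 9 of 10 erythroid markers summed to 229.5 to 748 CPM in KCs against 33.6 to 271.5 CPM in HEPs, where Hba-a2 and Slc4a1 were at 0 in all libraries. The erythroid part in the Tfrc level was not tested. In CPM over all 4 cell types, KCs came first and ECs next. There was no overlap between them or between ECs and HEPs, while HEPs and HSCs overlapped. In the fit of all 16 libraries, levels are divided by a TMM factor per library. It was 0.497 to 0.588 in HEPs, 1.34 to 1.47 in ECs and 1.144 to 1.245 in HSCs. The order and overlap of HEPs, ECs and HSCs therefore hold for CPM only.

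Slc40a1, the only known iron exporter of mammals (chromosome 1 from 45908068 to 45926523), had 1562 and 6455 CPM in KC WT and 5093 and 4096 CPM in KC labelled KO. The HEP libraries had 163 and 115 CPM in WT and 115 and 71.1 CPM in the libraries labelled KO. All KC libraries lay above all HEP libraries, KC WT 31 being far below the other KC libraries, and the log2FC was -4.34 (SE 0.42, adjusted p = 5.38e-05). In CPM, HSCs (363 to 515 CPM) and ECs (212 to 419 CPM) overlapped and lay between KCs and HEPs. Given the TMM factors named for Tfrc, the separation of ECs from HEPs and the overlap of ECs with HSCs hold for CPM only. As a percentage of the KC WT mean, Slc40a1 was at 9.05% to 12.8% in HSCs and 5.29% to 10.4% in ECs, while the median of 10 KC markers was at 0.917% to 5.17% and 0.933% to 2.17% in those libraries.

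Hmox1, which opens the heme ring and frees its iron (chromosome 8 from 75093621 to 75100589), had 2488 and 2180 CPM in KC WT and 3141 and 2034 CPM in KC labelled KO. In HEPs it had 57.4 and 52.6 CPM in WT and 43.4 and 224 CPM in the libraries labelled KO. The highest HEP library, KO 41, remained far below the lowest KC library (log2FC -3.95, SE 0.52, adjusted p = 0.000305). ECs (71.9 to 169 CPM), HSCs (66.5 to 297 CPM) and HEPs overlapped.

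The ferritin chains differed less. Ftl1 (chromosome 7 from 45457944 to 45459884) had 4908, 4474, 5027 and 5218 CPM in the KC libraries and 1605, 1897, 2032 and 1932 CPM in the HEP libraries, and Fth1 (chromosome 19 from 9980598 to 9985098) had 4713, 3438, 4360 and 3961 CPM against 1592, 1802, 1832 and 1654 CPM. KCs were above HEPs in CPM for both, without overlap. On the TMM scale the log2FC was -0.53 for Ftl1 (SE 0.17, adjusted p = 0.0266) and -0.40 for Fth1 (SE 0.19, adjusted p = 0.106). The scale decided the call of Fth1 and the size of both: with library totals in its place, a choice made after the data were seen, the log2FC values were -1.40 for Ftl1 (adjusted p = 0.000102) and -1.26 for Fth1 (adjusted p = 0.000369), the median over all genes moved to -1.20, and the split of all calls from 3899 higher and 4864 lower to 2447 and 7404. Ftl1 lost its call in the fit of all 16 libraries (log2FC -0.34, adjusted p = 0.162), in either label alone and without any 1 of KC KO 43, HEP WT 29, HEP KO 25 or HEP KO 41 (adjusted p = 0.0757 to 0.106), and Fth1 was called without KC WT 39 (adjusted p = 0.0136).

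The balance of the chains differed between cell types. There were 1.59 ± 0.178 reads of Ftl1 for each read of Fth1 in ECs, 1.20 ± 0.131 in KCs, 1.09 ± 0.0693 in HEPs and 0.553 ± 0.0780 in HSCs (mean ± SD, n = 4). The HSC libraries, at 0.500 to 0.668, lay apart from the 12 others, at 1.01 to 1.82, and ECs apart from KCs and HEPs, which overlapped. This pattern was seen in these values and was not tested. Processed copies of ferritin genes are common in mammalian genomes, and reads shared with them may have been set aside. The class of alignments that are not unique held 38.2% to 47.9% of all summed counts in HEP libraries and 24.8% to 30.1% in the others. Whether a read counts more than once in this class was not checked, and its part in these levels was not tested.

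Transferrin and ceruloplasmin, plasma proteins of the liver, were on the hepatocyte side. Trf (chromosome 9 from 103204001 to 103230444) had 2444 and 2138 CPM in HEP WT and 2239 and 2013 CPM in HEP labelled KO, against 191 and 303 CPM in KC WT and 348 and 357 CPM in KC labelled KO (log2FC 3.78, SE 0.19, adjusted p = 2.4e-06). Cp (chromosome 3 from 19957054 to 20009145) had 1243 and 998 CPM in HEP WT and 787 and 640.3 CPM in HEP labelled KO, against 107 and 147 CPM in KC WT and 149 and 161 CPM in KC labelled KO (log2FC 3.54, SE 0.18, adjusted p = 2.72e-06). HEP and KC libraries lay far apart for both genes. In KCs, Trf stood at 8.35% to 15.6% and Cp at 9.59% to 14.4% of the HEP WT mean, in all 4 libraries above the median of the HEP markers. Trf lay within the range of the 15 markers in all 4 libraries. Cp did so in all but KC WT 31, where it was at 9.59% and the highest marker at 8.97%. The part of HEP RNA in these values was not tested. Exons of Trf share 2108 bases with the annotated gene Gm20425 on the same strand, so that reads there may have been set aside.

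**Figure D2:**
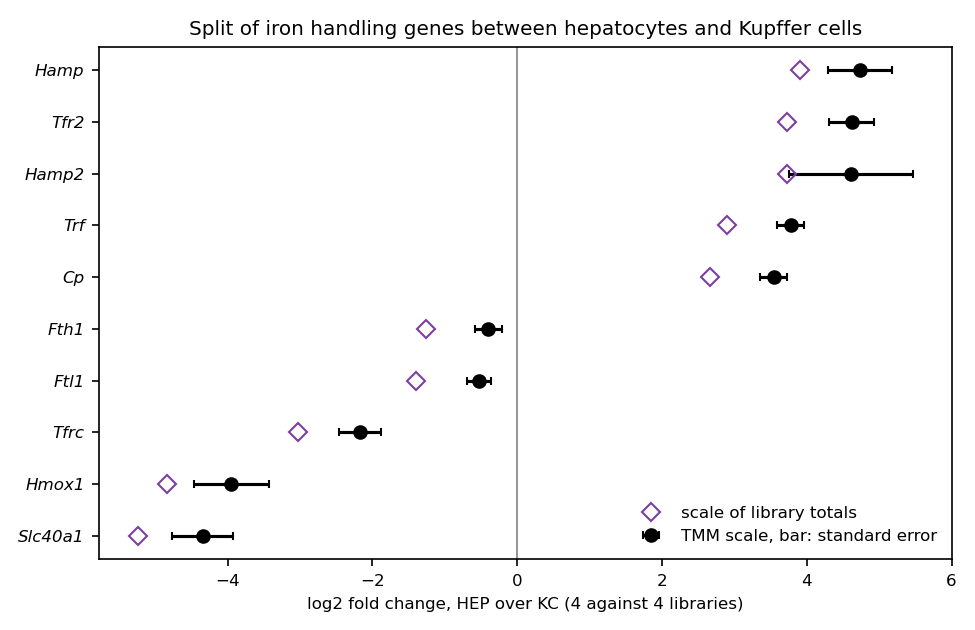
Log2 fold change of HEP over KC libraries (4 against 4) for the 10 genes. Black points are on the TMM scale with the SE, and open diamonds use library totals. The signs are the same on both scales, with Hamp at 4.74 and Slc40a1 at -4.34 on the TMM scale, and Fth1 at -0.40 is nearest to 0.

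Per kilobase of exon, which allows genes to be compared, the order of levels also differed between the cell types. HEPs had 1393 ± 137 CPM per kilobase of Ftl1, 779 ± 313 of Hamp, 665 ± 54.9 of Trf, 496 ± 33.2 of Fth1 and 166 ± 5.10 of Tfr2. KCs had 3662 ± 235 CPM per kilobase of Ftl1, 1405 ± 281 of Hmox1, 1187 ± 158 of Fth1 and 478 ± 230 of Slc40a1 (mean ± SD, n = 4). Hamp and Trf could not be ranked in HEPs, nor Hmox1 and Fth1 in KCs, within this spread. The length is that of all annotated exons of a gene, which makes values of genes with rare long forms, such as Slc40a1 with 9000 bases, too low. Fth1, with 3469 bases in 2 merged exons, may be too low in the same way. Its place in the order of either cell type is therefore not settled.

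Of the other iron genes, 20 of 21 regulators of hepcidin were tested between HEPs and KCs, with 3 higher in HEPs and 9 lower (median log2FC -0.61), a share of calls near the 59.8% of all genes. Those higher were Hjv, the BMP co-receptor hemojuvelin (5.00, adjusted p = 0.000746), the transcription factor Atoh8 (4.78, adjusted p = 2.33e-05) and Tmprss6, the protease that cleaves hemojuvelin (4.36, adjusted p = 2.63e-06). Among those lower were the BMP targets Id1 (-2.84) and Smad6 (-2.68), the ligand Bmp2 (-2.35) and Hfe (-2.02), which is mutated in hereditary hemochromatosis. Bmp6 differed by -0.03 (SE 0.63, adjusted p = 0.972), at levels of 0.472 to 4.94 CPM in both cell types.

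Of 22 genes for iron and heme transport tested, 11 were higher in HEPs and 6 lower (median 0.75), where 26.6% and 33.2% of all genes were. The plasma scavengers hemopexin (Hpx, 4.28) and haptoglobin (Hp, 4.18) were higher, as was Flvcr2 (4.43). The ferritin receptor Scara5 was also called higher, with 3.24 to 7.57 CPM in HEPs, but had 0 counts in both KC WT libraries and 0.812 and 4.62 CPM in those labelled KO. The haptoglobin-hemoglobin receptor Cd163 (-8.58), the phagosomal iron transporter Slc11a1 (-6.72), the heme exporter Flvcr1 (-5.91, with 0 counts in 2 HEP libraries) and the hemopexin receptor Lrp1 (-1.63) were lower. Hemopexin and haptoglobin were thus higher in HEPs, and the receptors that take up their complexes higher in KCs. Of 23 genes for storage, sensing and heme turnover, 12 were higher in HEPs and 8 lower (median 0.76), beside the same shares of all genes. Among the higher ones were Alad (3.76), Cpox (3.09) and Urod (2.57) of heme synthesis. The 4 lower ones with the largest changes were Spic (-7.12), a transcription factor of iron-recycling macrophages, Nfe2l2 (-2.50) and Bach1 (-1.99), which activate and repress Hmox1, and the biliverdin reductase Blvra (-2.32). Scara5 and Flvcr2 were not called in the libraries labelled KO alone, nor Smad6 in WT alone.

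The signals that drive hepcidin were found in other libraries than the hormone. Bmp2 had 1556 and 1069 CPM in EC WT and 1167 and 1142 CPM in EC labelled KO, against 84.0 to 231 CPM in HSCs, 20.7 to 59.5 CPM in KCs and 1.82 to 7.43 CPM in HEPs, and the 4 cell types did not overlap. Bmp6 had 37.4 to 47.6 CPM in ECs and at most 4.94 CPM elsewhere. Hjv had 7.75 to 18.6 CPM in HEPs and Tmprss6 573 to 640.0 CPM. In CPM, Hfe was highest in KCs, with 431 to 542 CPM, and lowest in HEPs, with 56.0 to 79.8 CPM. Given the TMM factors named for Tfrc, its place as lowest in HEPs holds for CPM only.

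**Figure D3:**
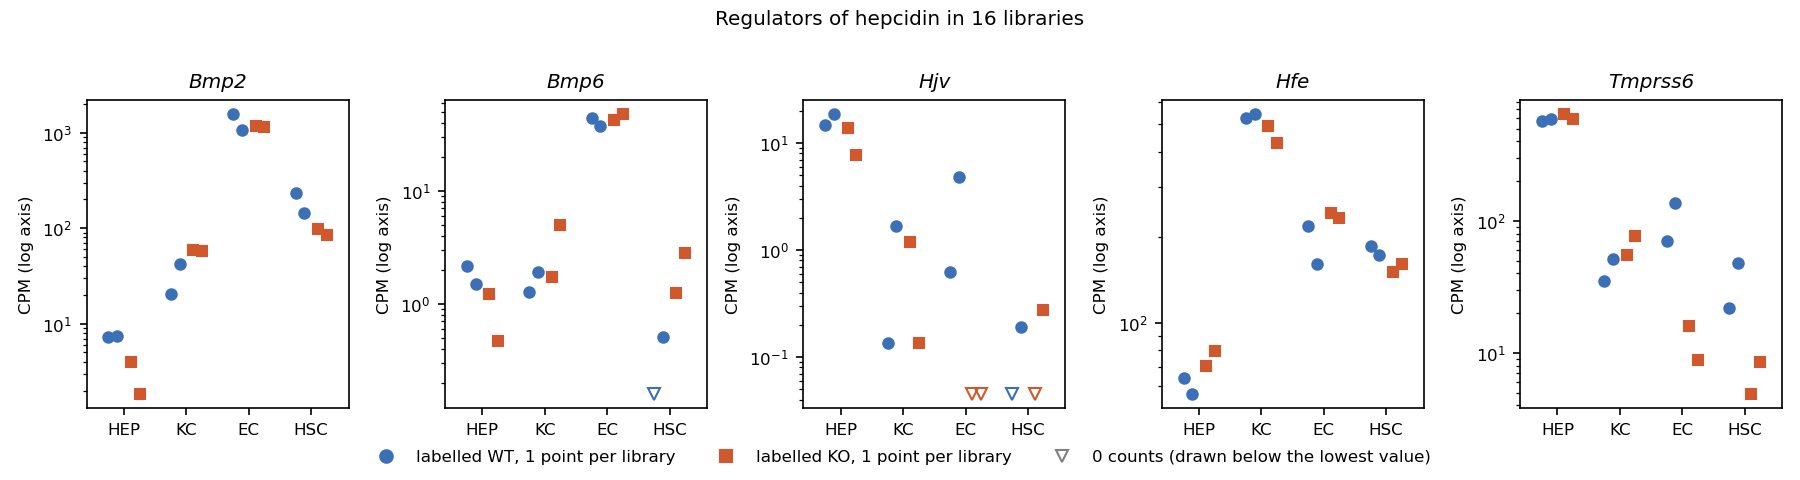
Level in CPM (log axis) of 5 regulators of hepcidin in the 16 libraries, by cell type, with 1 point per library and the label by colour. Bmp2 and Bmp6 are highest in the EC libraries, Hfe in the KC libraries, and Hjv and Tmprss6 in the HEP libraries. Open triangles stand for 0 counts, found for Hjv in both EC libraries labelled KO, HSC WT 32 and HSC KO 8 and for Bmp6 in HSC WT 32.

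In ECs, the question was whether the KO label went with other levels of iron genes in the targeted cells. Of 9 genes tested, 3 were lower under the KO label, Tfr2, Cp and Trf, and 0 were higher, where 2.08% of the 14631 genes tested passed, 1.97% lower and the rest higher. Hamp2 did not pass the filter on low counts. Tfr2 had 74.2 and 161 CPM in WT and 12.3 and 8.62 CPM in the libraries labelled KO (log2FC -3.50, SE 0.42, adjusted p = 0.0290). Cp had 172 and 232 CPM against 30.1 and 18.9 CPM (-3.05, SE 0.29, adjusted p = 0.0205). Trf had 281 and 589 CPM against 60.4 and 44.8 CPM (-3.05, SE 0.39, adjusted p = 0.0290). For each of them both WT libraries lay above both labelled KO, as for 24.1% of all genes. Hamp, with 16.2 and 47.9 CPM against 5.43 and 7.30 CPM, had a log2FC of -2.31 (SE 0.55, adjusted p = 0.117) and passed with DESeq2 (adjusted p = 0.00074), which called 4 of the members and 6.39% of all genes.

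Levels of HEP markers moved with these genes. As a percentage of HEP WT, the median of the 15 markers was 10.8% and 22.9% in EC WT and 2.46% and 1.93% in EC labelled KO, and 14 of the 15 were called lower, with log2FC values from -3.98 to -2.23 and a median of -2.94. On the same scale Tfr2 stood at 10.2% and 22.1% in WT and 1.68% and 1.18% in the libraries labelled KO, Trf at 12.3% and 25.7% against 2.63% and 1.95%, and Cp at 15.4% and 20.7% against 2.68% and 1.69%. Hamp was at 4.82% and 14.3% in WT, below the lowest marker (5.79% and 16.7%), and at 1.62% and 2.17% under the KO label. In all 4 EC libraries Tfr2, Trf and Cp lay within the range of the 15 markers. The part of HEP RNA in the 3 calls was not tested.

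**Figure D4:**
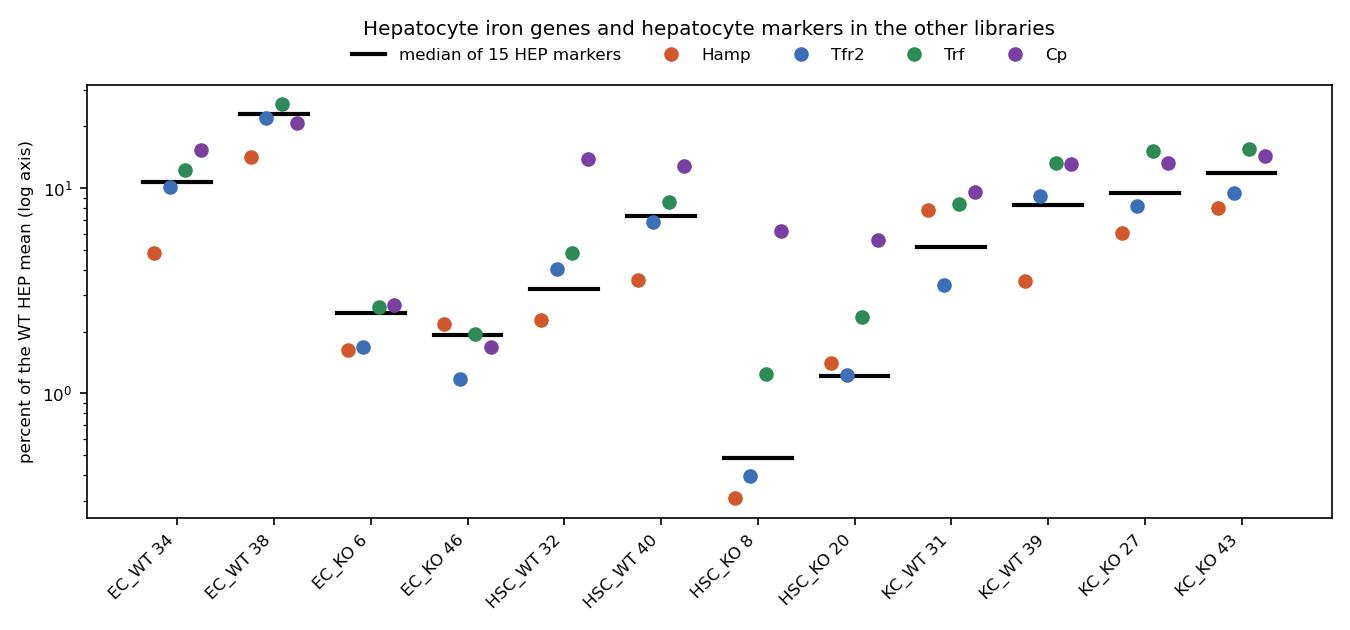
Level of Hamp, Tfr2, Trf and Cp (points) and median level of 15 hepatocyte (HEP) markers (black lines) in the 12 sorted libraries, each as a percentage of its mean in the HEP WT libraries (log axis). The marker median is 10.8% and 22.9% in EC WT against 2.46% and 1.93% in EC KO, and Cp in the 4 HSC libraries, at 5.57% to 13.9%, lies above it.

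The other genes did not pass in ECs. Slc40a1 had 373 and 286 CPM in WT and 419 and 212 CPM in the libraries labelled KO (log2FC -0.09, SE 0.34), and Tfrc 7.61 and 4.35 CPM against 7.24 and 6.67 CPM (0.21, SE 0.51). Fth1 differed by -0.04 (SE 0.27) and Ftl1 by -0.08 (SE 0.26). Hmox1 had 169 and 71.9 CPM against 161 and 164 CPM (0.42, SE 0.40, adjusted p = 0.683). The labels overlapped for all of these. The ligands for hepcidin did not pass either: the log2FC of Bmp2 was -0.19 (SE 0.29, adjusted p = 0.822) and that of Bmp6 0.16 (SE 0.24, adjusted p = 0.826).

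Of the wider lists in ECs, 1 of 19 regulators of hepcidin was lower, Tmprss6 (-3.07, adjusted p = 0.0300), 5 of 21 transport genes were lower (1.97% of all genes), and 0 of 23 genes for storage, sensing and heme turnover passed, with 3 of these at an unadjusted p under 0.05 (15.0% of all genes). Of the called transport genes, those with the largest changes were Hp (-2.85), Hpx (-2.80), the ferrireductase Steap4 (-2.35) and the iron importer Slc39a14 (-2.11). Hp, Hpx and Slc39a14 had their highest levels in HEPs, and Steap4 in HSCs, with 3525 to 6128 CPM. Markers of HSCs and lymphocytes, with a median log2FC of -1.41 and -1.35 and 0 of 10 called in either list, also had lower values in ECs labelled KO, and their part in these calls was not tested. The 3 calls among the members were not all kept when EC KO 46 or EC KO 6 was left out, which leaves 1 library in that label. Whether this came from those libraries or from a general loss of calls with fewer libraries was not tested. Across the 4 fits with a library removed, the log2FC values of the 3 genes ranged from -3.92 to -2.45.

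**Figure D5:**
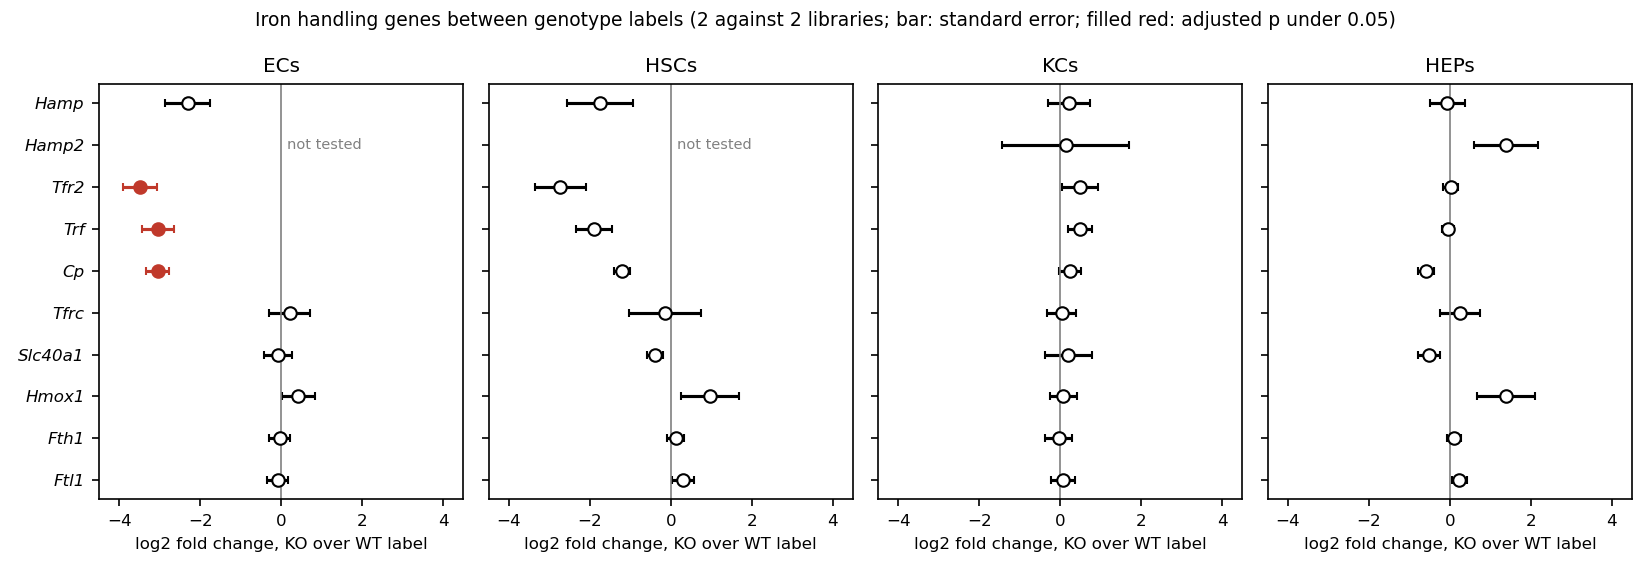
Log2 fold change of libraries labelled KO over WT in each cell type (2 against 2 libraries), with the SE. Filled red points passed an adjusted p of 0.05 in edgeR: Tfr2 at -3.50, Trf at -3.05 and Cp at -3.05 in ECs, and none elsewhere. Hamp2 was not tested in ECs and HSCs.

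In HSCs, 0 of the 9 genes tested passed, as did 0.00% of all 14390, with 3 of the 9 at an unadjusted p under 0.05 (8.75% of all genes) and 3 called by DESeq2 (2.58% of all genes). The 3 were again Tfr2, Cp and Trf. Cp had 156 and 144 CPM in WT and 69.6 and 62.4 CPM in the libraries labelled KO (log2FC -1.21, SE 0.20, adjusted p = 0.297). Tfr2 had 29.5 and 50.2 CPM against 2.90 and 8.99 CPM (-2.73, SE 0.63, adjusted p = 0.353). Trf had 111 and 196 CPM against 28.6 and 54.0 CPM (-1.89, SE 0.44, adjusted p = 0.354). For all 3 both WT libraries were higher, as for 19.3% of all genes. Of the 15 HEP markers 0 passed here, but they had a median log2FC of -2.54, with medians of 3.22% and 7.35% of HEP WT in WT and 0.486% and 1.21% in the libraries labelled KO.

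Cp in HSCs did not lie where those markers lay. It was at 13.9% and 12.8% of HEP WT in HSC WT and at 6.21% and 5.57% under the KO label, above the highest of the 15 markers in all 4 libraries (7.78%, 11.2%, 3.06% and 3.27%). In the fit of all 16 libraries, Cp (adjusted p = 0.0438) and Tfr2 (adjusted p = 0.0455) were called in HSCs, as were 1.03% of all 17214 genes. Hmox1 had 123 and 66.5 CPM in HSC WT and 72.5 and 297 CPM under the KO label, with the labels overlapping (0.98, SE 0.71, adjusted p = 0.798). The 2 libraries with more Hmox1, WT 32 and KO 20, were those with more RNA of KC markers, at 4.22% and 5.17% of KC WT against 0.917% and 1.06% in the other two. The part of KC RNA was not tested. Slc40a1 had 475 and 515 CPM in WT and 399 and 363 CPM in the libraries labelled KO (-0.40, SE 0.20, adjusted p = 0.658).

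In KCs, the cells that recycle iron, 0 of 10 genes passed in edgeR (0.00% of all 13867) or DESeq2 (0.510% of all genes), and 0 had an unadjusted p under 0.05 (5.09% of all genes). Log2FC values lay between -0.05 for Fth1 and 0.49 for Tfr2, with a median of 0.16 beside -0.02 over all genes. The SEs were 0.58 for Slc40a1 and 0.33 for Hmox1, so that changes of that order could not be seen. KC WT 31 had less Slc40a1 than any other KC library, and without it the log2FC of Slc40a1 was -0.44 in place of 0.20. Genes of the response to dissociation, of which 0 of 10 passed, summed to 14160 and 22840 CPM in KC WT against 7163 and 3550 CPM in KC labelled KO, and the part of this in the values of stress-induced Hmox1 was not tested.

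In HEPs, the cells that make hepcidin, 0 of 10 genes passed in edgeR (0.00% of all 11548) or DESeq2 (0.390% of all genes). Hamp differed by a log2FC of -0.06 (SE 0.43, adjusted p = 0.980), with the KO libraries between the WT libraries. Cp had the only unadjusted p under 0.05, where 7.11% of all genes had one, and both WT libraries were above both labelled KO, as for 23.2% of all genes (-0.59, SE 0.19, adjusted p = 0.700). Slc40a1 differed by -0.52 (SE 0.28, adjusted p = 0.721) and Tfr2 by 0.02 (SE 0.18, adjusted p = 0.982). Bmp2, at most 7.43 CPM here, differed by -1.28 (SE 0.48, adjusted p = 0.700) beside a median of -0.42 for 9 EC markers.

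A single HEP library carried the largest estimates. Hmox1 had a log2FC of 1.39 (SE 0.72, adjusted p = 0.713) and Hamp2 of 1.39 (SE 0.79, adjusted p = 0.732), and both were highest in HEP KO 41. Without that library they were -0.33 and -0.23. Without HEP KO 25, Hmox1 passed (2.16, adjusted p = 0.00673), with HEP KO 41 as the only library of its label. HEP KO 41 also had the least Slc40a1 and Cp of the 4 HEP libraries. Its 15 HEP markers had a median of 108.5% of HEP WT, with a range of 26.6% to 157.2%. The median of its KC markers, at 0.269% of KC WT, was the lowest of all HEP libraries. The part of cell make-up or state in the values of this library was not tested.

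Whether the label went with a different change in different cell types was tested over all 16 libraries, as the difference of the log2FC values. Between ECs and KCs, 3 of 10 genes passed (Tfr2, Trf and Cp, all lower in ECs), where 2.07% of 17214 genes did. Between ECs and HEPs 1 passed, Cp, where 0.0697% did, and DESeq2 called 3 (4.14% of all genes). None passed in edgeR between ECs and HSCs, with 1 of the 10 at an unadjusted p under 0.05, Cp, and Cp called by DESeq2 (0.0349%, 4.85% and 0.565% of all genes). None passed between HSCs and KCs (3 unadjusted and 3 with DESeq2, against 0.593%, 11.7% and 5.27% of all genes by the 3 rules), between HSCs and HEPs (2 and 1, against 0.0755%, 7.16% and 2.22%) or between KCs and HEPs (1 and 0, against 0.0116%, 8.18% and 1.05%). Slc40a1, Hmox1, Fth1, Ftl1 and Tfrc passed in none of these in edgeR.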

How the data were processed

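RNA of 4 liver cell types was counted in 16 libraries. The authors deposited raw counts of reads per Ensembl gene without normalization, and the submitters' processing notes name Trimmomatic 0.32, HISAT2 2.1.0, HTSeq 0.9.1 and GRCm38. The strand setting is not given in the sources used here, and the notes of series and samples name different library kits. Reads that aligned to several places were left out of the gene counts by HTSeq. Their class, alignments that are not unique, held 24.8% to 47.9% of a library's summed counts. CPM were counts over the sum of gene rows. GENCODE mouse release 21 gave positions, exon lengths and untranslated regions, and RefSeq the promoter windows (250 bases before to 50 after a start, found for 7 of the 10 genes).

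All genes were tested with edgeR 4.0.16 (filterByExpr, TMM, quasi-likelihood, Benjamini-Hochberg, R 4.3.3): KO against WT label within a cell type, HEPs against KCs over 8 libraries with 1 mean per group, and the difference of label effects between cell types over 16. The standard error is the log2 fold change over the root of F. With 2 against 2 libraries no exact permutation p can be under 0.333. Alternatives were DESeq2 1.42.0, RLE factors, no low count filter, other sets of libraries, TMM factors without 857 hepatocyte-enriched genes (at least 10 CPM in HEP WT and at least 8 times KC WT), leaving out each library and, added after the data were seen, library totals. The test was checked on simulated data. The members and lists (21 regulators of hepcidin, 23 transport genes and 24 genes for storage, sensing and heme turnover) were chosen with earlier results of these data known. Named were all members, up to 4 called genes per list and direction with the largest change, and Bmp2, Bmp6, Hjv, Hfe and Tmprss6. Some genes that this rule or a marker list takes in are not reported here. Plots used matplotlib 3.10.9.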

Additional observations from a re-analysis of the deposited data

Results flagged for a closer look

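The change with the KO label differed between cell types, by a test of the difference itself over all 16 libraries (edgeR), for 3 of the 10 genes between ECs and KCs and for 1 between ECs and HEPs. Tfr2 had a log2FC lower in ECs than in KCs by -4.01 (SE 0.78, adjusted p = 0.0278), Trf by -3.54 (SE 0.59, adjusted p = 0.0176) and Cp by -3.32 (SE 0.36, adjusted p = 0.00521). Between ECs and HEPs the difference was -2.51 for Cp (SE 0.36, adjusted p = 0.0430), while -3.55 for Tfr2 (adjusted p = 0.0832) and -3.04 for Trf (adjusted p = 0.0681) did not pass. The difference of Cp between ECs and HSCs was -1.84 (SE 0.35, adjusted p = 0.173). HEP markers were lower under the KO label in ECs, with a median log2FC of -2.94, and had a median of 0.56 in KCs and 0.20 in HEPs. Their part in these differences was not tested. Without EC KO 46 none of the 3 differences between ECs and KCs passed, and without EC WT 38, EC KO 6 or KC WT 31 only that of Cp did. That of Tfr2 was also lost without KC KO 43 or any 1 of the HEP libraries. That of Cp between ECs and HEPs was lost in 13 of the 16 fits with a library left out, in all but those without EC WT 34, HSC KO 8 or HSC KO 20.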

How the results depend on the processing

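The split between HEPs and KCs kept 8 to 10 of the 10 genes called under all alternatives, and the fold changes of all 10 kept their sign. Among settings that kept all HEP and KC libraries, the share of all genes called ran from 37.0% without the low count filter to 67.3% with library totals. Of the 10 genes, those called in ECs depended on which library was left out. The log2FC of the 3 called in the full fit then ranged from -3.92 to -2.45. The 0 called in HSCs became 3 without a low count filter, 3 with DESeq2 and 2 in the fit of all 16 libraries (2.70%, 2.58% and 1.03% of all genes called there). The 0 called in HEPs became 2 without the filter (1.14% of all genes). With a library left out, the log2FC of Hmox1 in HEPs ranged from -0.33 to 2.16, the highest without HEP KO 25. Differences between cell types moved from 0 to 1 for ECs and HSCs with DESeq2, from 1 to 0 with library totals, 4 without the filter (3.32% of all genes) and 3 with DESeq2 for ECs and HEPs, from 0 to 3 without the filter (3.81%) and 3 with DESeq2 for HSCs and KCs, and from 0 to 2 without the filter (2.55%) and 1 with DESeq2 for HSCs and HEPs. The calls between ECs and KCs, ECs and HEPs, HSCs and KCs, and HSCs and HEPs also changed with the library left out. The differences between ECs and KCs then ranged from -4.628 to -3.335 for Tfr2, -3.806 to -2.909 for Trf and -3.526 to -2.953 for Cp. That of Cp between ECs and HEPs ranged from -2.712 to -2.142. The causes were not tested.

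Signs turned with library totals for Fth1 in KCs (log2FC 0.030) and Tfr2 in HEPs (-0.045), and for Bmp6 between HEPs and KCs with all 16 libraries (0.17) and in WT alone (1.003). With a library left out, signs turned only for values that had not passed. In ECs the ranges were -0.15 to 0.72 for Tfrc, -0.57 to 0.29 for Slc40a1, -0.25 to 0.17 for Fth1, -0.24 to 0.080 for Ftl1, -0.080 to 1.22 for Hmox1 and -0.45 to 0.15 for Bmp2. In HSCs they were -0.68 to 0.70 for Tfrc, -0.032 to 0.56 for Ftl1 and -0.48 to 1.68 for Hmox1. In KCs they were -0.31 to 1.05 for Hamp, -2.43 to 1.06 for Hamp2, -0.23 to 0.35 for Tfrc, -0.44 to 1.39 for Slc40a1, -0.34 to 0.33 for Fth1, -0.10 to 0.25 for Ftl1, -0.23 to 0.31 for Hmox1 and -2.62 to 2.05 for Hjv. In HEPs they were -0.57 to 0.76 for Hamp, -0.23 to 2.14 for Hamp2, -0.059 to 0.11 for Tfr2, -0.038 to 0.25 for Fth1, -0.33 to 2.16 for Hmox1 and -0.084 to 0.0017 for Trf. Between HEPs and KCs they were -0.40 to 0.49 for Bmp6, and for the difference of ECs and HSCs -1.19 to 1.15 for Hamp and -1.29 to 0.50 for Tfr2.

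No paired analysis was possible because no number in the labels is shared between groups. Where a library left out leaves 1 in its arm, that library was assumed to vary like the others. With 2 libraries per group, SEs of 0.15 to 1.57 on the log2 scale within a cell type bound what could be seen, and levels under 3 counts, as Hamp2 had in 5 of the 12 sorted libraries, cannot be read.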

Other observations

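The genes whose pattern over the 16 libraries was most like that of 3 members were looked up among 17213 genes, by Pearson's r of log2 CPM with a prior count of 2. The libraries share cell types in groups of 4, so that a high r mostly tells in which cell type a gene is high. For Hamp they were Hp (0.988), Wfdc21 (0.988) and Proc (0.987), the gene of protein C. For Slc40a1 they were Arhgap19 (0.978), Angptl7 (0.976) and Atp13a2 (0.972), a lysosomal transport ATPase. For Tfrc they were Atp6v0b (0.972), a subunit of the vacuolar proton pump, Prr13 (0.965) and Arpc5 (0.965), a subunit of the Arp2/3 complex.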
